A study of Mus musculus with 15 samples.

Results

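Collagens, laminins and nidogens are secreted chains that build the extracellular matrix, and 57 of the 24493 genes of an RNA sequencing table of sorted mouse liver cells carry their names. They were taken by gene symbol, as collagen alpha chains (44 genes), laminin alpha, beta and gamma chains (11 genes) and the nidogens Nid1 and Nid2. These families were chosen with earlier results of these data known. The table holds 15 libraries in 5 groups of 3: untreated mice gave hepatocytes and biliary epithelial cells, and mice on a diet with DDC, which damages the biliary tree, gave the same cell types and reprogrammed cells. Per the labels, every mouse of every group had been injected at 4 weeks of age with AAV-TBG-Cre, a viral vector whose hepatocyte promoter drives the Cre recombinase that labels the cells. DDC feeding began at 5 weeks of age and lasted 4 weeks, and cells were sorted from the liver without culture. The series title calls the reprogrammed cells reprogrammed hepatocytes, and the sources used here do not give the sort markers. The labels do not say that the 3 libraries of a group came from separate animals, so the p-values measure the spread between these samples, which may be technical.

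A basement membrane is a thin sheet that underlies epithelia and wraps vessels. Its laminin network is made of trimers with an alpha, a beta and a gamma chain, its collagen IV network of trimers drawn from the Col4a1 to Col4a6 chains, and nidogens and the proteoglycan perlecan (Hspg2) link the networks. Bile ducts rest on such a sheet, whereas the hepatocyte plates of a normal liver face the sinusoid without a continuous one. Fibrillar collagens such as types I and III form the scar of a fibrotic liver and come mainly from mesenchymal cells.

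Levels are in TPM, an abundance relative to transcript length and to all other RNA of the library, divided by a scale factor for each library ("scaled TPM"), and group values are means ± SD (n = 3). A gene was called different when its limma adjusted p was under 0.05 and its difference in log2(scaled TPM + 1) was at least 1 in size. The pseudocount of 1 makes these log2 differences understate the change of genes near 0. TPM keeps no read totals, so the depth behind each value is unknown. Of the 57 genes, 34 reached at least 1 TPM in at least 3 libraries and were tested: 23 collagens, 9 laminins and both nidogens. A gene that passed this filter through the group where it is high had to differ to some degree, so the counts below describe the tested genes and not all 57.

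The labelled cell types carried their markers. The 6 biliary markers (Krt19, Krt7, Epcam, Sox9, Spp1, Cftr) summed to 10170 to 11770 scaled TPM in untreated biliary cells and 7589 to 12520 in DDC biliary cells, against 7.47 to 11.4 in untreated hepatocytes, with Krt7 and Cftr at 0 there. In DDC hepatocytes they summed to 262 to 582 and in reprogrammed cells to 4303 to 10430. Spp1 made up most of the sum in every library. The 6 hepatocyte markers, among them Alb and Hnf4a, stood in both biliary groups at 14.5% to 23.6% of their level in hepatocytes of the same treatment and in reprogrammed cells at 35.3% to 48.9% of DDC hepatocytes. The share of this hepatocyte signal in any gene below was not tested. The 9 endothelial markers summed to at most 17.1 scaled TPM in any library. The 8 macrophage and leukocyte markers summed to 8.88 to 18.1 in untreated hepatocytes, 26.9 to 52.8 in DDC hepatocytes, 48.8 to 77.2 in untreated biliary and reprogrammed cells and 62.3 to 130.4 in DDC biliary cells. Fewer cells of a type and less RNA per cell cannot be told apart in such bulk samples.

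Biliary cells and reprogrammed cells expressed most of the tested chains at higher levels than hepatocytes did. Without Col18a1, which is described on its own below, the 57 genes summed to 49.9 to 64.1 scaled TPM in the 3 untreated hepatocyte libraries and 471 to 513 in untreated biliary cells. In DDC mice the sums were 171 to 219.9 in hepatocytes, 442 to 576 in reprogrammed cells and 597 to 818 in biliary cells. Hepatocytes thus did not overlap with either other group, and the libraries of reprogrammed cells all lay below those of biliary cells. With Col18a1 the sums were 513 to 541 in untreated hepatocytes and 591 to 667.5 in untreated biliary cells. In DDC mice they were then 571 to 735 in hepatocytes, 705 to 818 in reprogrammed cells and 714 to 944 in biliary cells. These 3 DDC ranges overlapped.

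**Figure D1:**
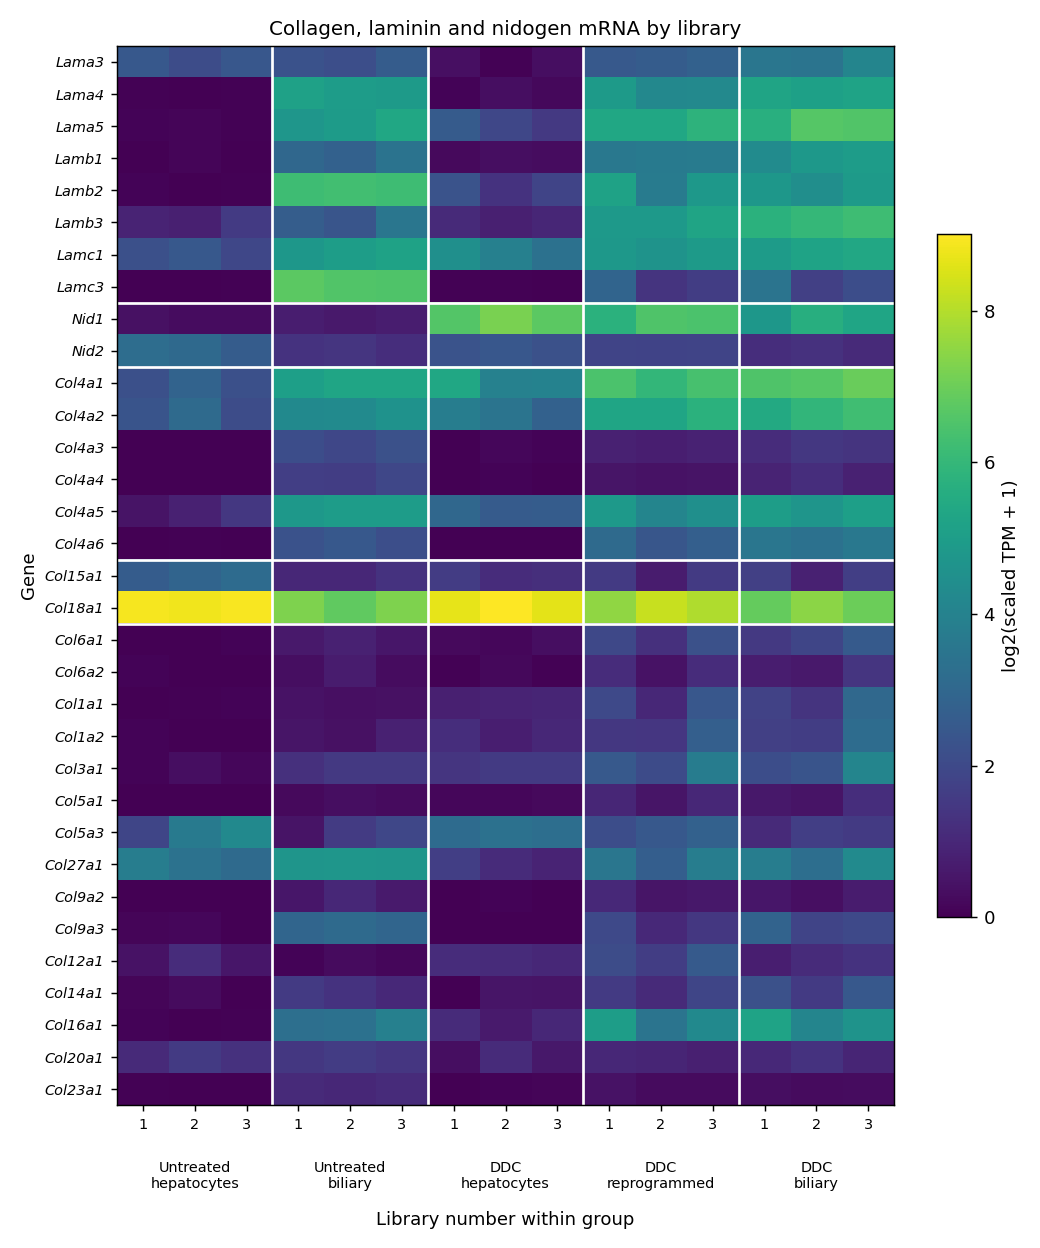
Each row is a tested gene and each column a library, with colour giving log2(scaled TPM + 1) from 0 (dark) to about 9 (yellow); white lines separate laminins, nidogens, collagen IV, collagens XV and XVIII, and the other collagens. Col18a1 was bright in all 15 libraries, Nid1 was dark in the 6 untreated libraries and bright in the 9 DDC libraries, and most laminin and collagen IV rows were dark in hepatocytes.

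In untreated mice 24 of the 34 tested genes were called between biliary cells and hepatocytes, against 37.2% of all 13905 genes tested: 20 were higher in biliary cells (21.6% of all genes) and 4 lower (15.6%). The median difference was 1.24 for the 34 genes and 0.12 for all genes. In DDC mice 26 were called between the same cell types, against 34.7% of all genes, with 22 higher in biliary cells (20.1% of all genes) and 4 lower (14.6%), and a median of 1.55 against 0.14. Between reprogrammed cells and DDC hepatocytes 19 were called, against 19.5% of all genes. All 19 were higher there (13.7% of all genes) and 0 lower (5.8%), with a median of 1.22 against 0.06. The second and last of these comparisons share the DDC hepatocyte libraries.

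These splits depend on the scaling. With TPM as deposited the median gene was higher by 1.11 in untreated biliary cells, by 1.06 in DDC biliary cells and by 0.71 in reprogrammed cells, each against hepatocytes of the same mice. The splits were then 21 higher and 0 lower, 24 and 0, and 23 and 0. With quantile normalization the last comparison had 15 higher and 2 lower. Collagens and nidogens named below as lower in biliary cells are therefore given with their value in deposited TPM.

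Laminin mRNA separated biliary cells from hepatocytes in untreated mice for all but a single tested chain. Of the 9 chains tested, 8 were higher in untreated biliary cells and 0 lower (21.6% and 15.6% of all genes). Lamc3, a gamma chain best known from nerve and retina, was 106, 93 and 91.3 scaled TPM in the 3 untreated biliary libraries and at most 0.0283 in untreated hepatocytes. Lamb2, a beta chain of mature basement membranes, was 73.1, 77.3 and 73.6 in untreated biliary cells and at most 0.0747 in untreated hepatocytes. For both chains every biliary library was far above every hepatocyte library. The differences were 6.60 (SE 0.41, adjusted p = 2.54e-08) and 6.19 (SE 0.31, adjusted p = 3.34e-09) by limma.

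The alpha chains of untreated biliary cells were mainly Lama4 and Lama5. Lama5, the most widespread epithelial alpha chain of adult tissue, was 25.6, 29.7 and 40.3 scaled TPM in untreated biliary cells and at most 0.0788 in untreated hepatocytes, a difference of 4.93 (SE 0.29, adjusted p = 1.38e-08) by limma. Lama4, an alpha chain known from vessel walls and mesenchyme, was 34.9, 30.3 and 29 and at most 0.0416, a difference of 4.97 (SE 0.17, adjusted p = 9.76e-11) by limma. The exception among the laminins was Lama3, an alpha chain of the laminin that anchors epithelia through hemidesmosomes. It was 4.53, 3.3 and 4.42 in untreated hepatocytes and 3.8, 3.52 and 5.11 in untreated biliary cells, so the groups overlapped, and the difference was 0.01 (95% interval -0.40 to 0.42). Lama3 held 97.2% ± 1.58 of the small laminin alpha mRNA of untreated hepatocytes and 6.09% ± 0.683 of that of untreated biliary cells.

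Of the remaining chains, Lamc1, the gamma chain of most laminin trimers, was present in untreated hepatocytes at 3.61, 4.53 and 2.77 scaled TPM and in untreated biliary cells at 26, 31.5 and 35.4, a difference of 2.79 (SE 0.24, adjusted p = 5.56e-07) by limma. Lamb1, the beta chain of many embryonic and adult trimers, was 7.08, 6.01 and 9.72 in untreated biliary cells and at most 0.0866 in untreated hepatocytes. Lamb3, the beta chain that pairs with Lama3 in epithelia, was 5.37, 4.25 and 10.5 against 0.853, 0.741 and 1.86. Both were called higher in biliary cells, at 3.04 and 1.80, and the groups did not overlap. With quantile normalization the Lamb3 call was lost (0.68, adjusted p = 0.0545 by limma).

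Different laminin chains led in the biliary cells of DDC mice. In sum, the alpha chains were 67.6 ± 6.11 scaled TPM in untreated and 129.5 ± 26.4 in DDC biliary cells, and the beta chains 89.0 ± 4.33 and 114 ± 18. Lamc3 fell from the untreated values above to 9.94, 2.26 and 3.41 in the 3 DDC biliary libraries, a difference of -4.18 (SE 0.41, adjusted p = 1.41e-05) by limma, with the first DDC library above the other two and all 3 below every untreated library. Lamc1 was 29.99, 36.3 and 41.4 in DDC biliary cells, and its groups overlapped (0.21, adjusted p = 0.573 by limma).

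The beta chains changed places in the same cells. Lamb2 fell to 26.1, 21 and 29.3 scaled TPM in DDC biliary cells, -1.53 on the log2 scale (SE 0.31, adjusted p = 0.00324 by limma). Lamb3 rose to 52.7, 62.8 and 73.9, a difference of 3.13 (SE 0.27, adjusted p = 4.51e-06), and Lamb1 rose to 19.5, 26.9 and 30.5, a difference of 1.63 (SE 0.17, adjusted p = 2.62e-05). For all 3 chains no DDC library lay inside the untreated range. In shares of beta-chain mRNA, which are taken within a library so that the scale factors do not enter them, Lamb2 went from 84% ± 5.08 to 22.5% ± 3.84, Lamb3 from 7.45% ± 3.34 to 55.2% ± 1.55 and Lamb1 from 8.5% ± 1.76 to 22.3% ± 2.29. The Lamb3 to Lamb2 ratio was 0.0735, 0.0550 and 0.143 in the untreated biliary libraries and 2.02, 2.995 and 2.52 in the DDC biliary libraries.

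The alpha chains Lama3 and Lama5 rose in DDC biliary cells and Lama4 passed no threshold. Lama5 was 50.9, 98.3 and 94.3 scaled TPM there, 1.29 above untreated biliary cells (SE 0.29, adjusted p = 0.00564 by limma), and the first of its DDC libraries was the lowest. Lama3 was 10.7, 9.98 and 16, 1.35 above untreated biliary cells (SE 0.19, adjusted p = 0.000222 by limma). Lama4 was 37.5, 33.6 and 36.5 and overlapped its untreated values (0.19, 95% interval -0.17 to 0.55). Lama3 and Lamb3 thus stood higher in every DDC biliary library than in every untreated one.

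**Figure D2:**
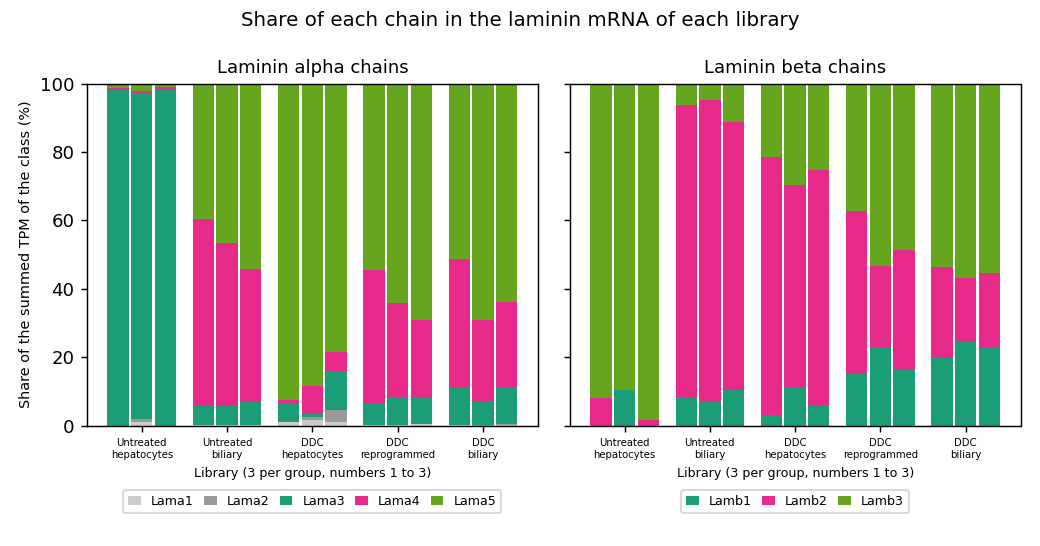
Each bar is a library and gives the percentage that each chain takes of the summed TPM of the laminin alpha (left) or beta chains (right). In the beta panel Lamb2 takes most of each untreated biliary bar and Lamb3 takes more than Lamb2 in each DDC biliary bar.

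Within DDC mice, laminin mRNA was again higher in biliary cells than in hepatocytes, for 9 of 9 tested chains (20.1% of all genes). Lamb3 differed by 5.04 and Lama4 by 5.0, Lama3 was now among the called chains (3.45), and Lamc1 was nearest to the required size (1.26, and 0.97 without the third DDC hepatocyte library). In reprogrammed cells 8 of the 9 chains were higher, and 0 lower, than in DDC hepatocytes (13.7% and 5.8% of all genes). Lama5 was 40.6, 40.5 and 55.2 scaled TPM in reprogrammed cells and 4.96, 2.76 and 1.85 in DDC hepatocytes, and Lama4 was 29.1, 17.3 and 18 against at most 0.257. Both were called higher, at 3.52 and 4.25, with no overlap between groups. Lamb3 was 27.9, 28.1 and 37.1 in reprogrammed cells and 1.13, 0.738 and 0.946 in DDC hepatocytes (4.04), and Lamb1 was 11.3, 12.2 and 12.4 and at most 0.27 (3.41).

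Lamb2 and Lamc3 differed in level between the 3 libraries of reprogrammed cells. Lamb2 was 35.5, 12.5 and 26.8 scaled TPM there and 3.95, 1.48 and 2.58 in DDC hepatocytes, a difference of 2.76 (SE 0.31, adjusted p = 1.59e-05) by limma. Lamc3 was 6.54, 1.53 and 2.13 in reprogrammed cells and at most 0.0416 in DDC hepatocytes, a difference of 1.92 (SE 0.41, adjusted p = 0.00228) by limma. The first library was the highest in both genes, as it was for Lamc3 among DDC biliary cells. Lama3 was 4.76, 5.17 and 6.03 and at most 0.29, a difference of 2.41 (SE 0.19, adjusted p = 4.93e-07) by limma. Lamc1, at 26.7, 24 and 28.7, was above every DDC hepatocyte library but stayed under the required size (0.84).

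Hepatocytes of DDC mice expressed a small set of laminin chains. Lamc1 was 21.6, 14.3 and 9.29 scaled TPM, against 2.77 to 4.53 in untreated hepatocytes, a difference of 1.74 (SE 0.24, adjusted p = 0.000208) by limma. Lama5 and Lamb2 were near 0 in untreated hepatocytes and rose by 1.92 and 1.77 on the log2 scale (adjusted p = 0.00036 and 0.00114 by limma). Lama3 moved the other way: it fell from 3.3 to 4.53 scaled TPM to 0.29, 0.0256 and 0.261, a difference of -2.09 (SE 0.19, adjusted p = 6.57e-06) by limma. Lama5 took 86.5% ± 7.09 of the alpha-chain mRNA of these cells. The 6 biliary markers summed to 262 to 582 scaled TPM in these libraries, against at most 11.4 in untreated hepatocytes. Most of this sum was Spp1, at 442, 253 and 566. Sox9 was 11.4, 5.55 and 12.3, and Krt19, Krt7, Epcam and Cftr were each at most 1.97. The part of this biliary signal in the laminin values was not tested.

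Nid1 had the largest difference between DDC and untreated mice of the 34 tested genes, in hepatocytes and in biliary cells. Nidogen-1 binds the laminin gamma chain encoded by Lamc1 and collagen IV. It was 0.312, 0.234 and 0.222 scaled TPM in untreated hepatocytes and 0.648, 0.549 and 0.635 in untreated biliary cells. In DDC mice it was 96.8, 145 and 106 in hepatocytes, 52.6, 92.2 and 86.3 in reprogrammed cells and 26.5, 49.4 and 38.3 in biliary cells. Every DDC library thus lay far above every untreated library, and within DDC mice hepatocytes were highest and biliary cells lowest with no overlap. With deposited TPM, DDC hepatocytes (74.7, 100.4 and 68.1) and reprogrammed cells (72.9, 97.7 and 107) overlapped, with the higher mean in reprogrammed cells. The DDC difference was 6.52 (SE 0.24, adjusted p = 1.43e-09) in hepatocytes and 4.56 (SE 0.24, adjusted p = 5.83e-08) in biliary cells by limma. These calls held under all 15 alternatives tried for hepatocytes and all 16 for biliary cells. The rank in biliary cells did not: with a pseudocount of 5 the difference there was 2.90 for Nid1 and -3.39 for Lamc3.

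Nid1 was called lower in DDC biliary cells than in DDC hepatocytes, with a difference of -1.60 (SE 0.24, adjusted p = 6.48e-05 by limma), which was -0.50 (adjusted p = 0.0395) with deposited TPM and so under the required size. DDC biliary cells held 32.8% and reprogrammed cells 66.5% of the Nid1 level of DDC hepatocytes. The hepatocyte markers Alb, Ttr, Apoa1, Hnf4a, Cps1 and Cyp2e1 stood at 14.5% to 23.6% and 35.3% to 48.9% on the same reckoning. How much hepatocyte RNA adds to Nid1 in the other groups was not tested.

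The Nid1 gene lies on chromosome 13, from 13437551 to 13512269 on the plus strand (GENCODE M21, GRCm38). The 199 bases before its annotated start (chr13:13437352-13437550, plus strand, RefSeq GRCm38.p6) are shown because the gene had the largest DDC response in the main fit. Capitals mark a CCAAT box (CCAAT, or ATTGG on the other strand) and a GC box (GGGCGG or CCGCCC); the TATA box (TATAAA or TTTATA) was also searched and is not in this stretch.
Nid1: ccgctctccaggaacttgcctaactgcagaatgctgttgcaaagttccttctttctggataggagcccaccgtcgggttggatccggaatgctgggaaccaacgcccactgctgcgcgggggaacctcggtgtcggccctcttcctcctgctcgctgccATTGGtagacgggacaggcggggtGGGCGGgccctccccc
Of 32851 RefSeq start windows cut at the same positions, 28.2% hold the CCAAT letters and 24.4% the GC box letters. The neighbours in RefSeq order were Gpr137b, at mean scaled TPM of 0.0391 in untreated and 0.719 in DDC hepatocytes, and Lyst, at 7.49 and 5.74. Neither came near the level of Nid1 in DDC hepatocytes.

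Nid2, the second nidogen, had another order. It was 8.34, 7.52 and 5.2 scaled TPM in untreated hepatocytes, 1.49, 1.59 and 1.26 in untreated biliary cells, 3.97, 4.41 and 3.69 in DDC hepatocytes, 2.59, 2.53 and 2.61 in reprogrammed cells and 1.25, 1.41 and 1.13 in DDC biliary cells. Hepatocytes were highest in both treatments, with no overlap with biliary cells. With deposited TPM, DDC hepatocytes were at 3.06, 3.05 and 2.38 and reprogrammed cells at 3.59, 2.68 and 3.23, so hepatocytes were then not the highest DDC group. The difference between biliary cells and hepatocytes was -1.69 (SE 0.15, adjusted p = 4.9e-07) in untreated and -1.15 (SE 0.15, adjusted p = 1.71e-05) in DDC mice by limma. With deposited TPM it was -0.73 and -0.39, both under the required size, with hepatocytes still higher. Biliary cells held 20.6% and 31.4% of the hepatocyte level, against 14.5% to 23.6% for the hepatocyte markers, whose part in these values was not tested.

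Collagen IV mRNA was dominated by Col4a1 and Col4a2, whose chains make the collagen IV trimer found in nearly all basement membranes. In untreated mice all 6 collagen IV chains were higher in biliary cells than in hepatocytes (21.6% of all genes). Col4a1 was 3.64, 6.34 and 3.6 scaled TPM in untreated hepatocytes and 32.9, 38.4 and 38.8 in untreated biliary cells, a difference of 2.80 (SE 0.32, adjusted p = 6.73e-06) by limma. Col4a2 was 4.03, 7.62 and 3.29 and 18.4, 18.7 and 23, a difference of 1.88 (SE 0.29, adjusted p = 9.51e-05) by limma. Neither gene overlapped between the cell types.

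DDC mice had more Col4a1 and Col4a2 mRNA in biliary cells. Col4a1 was 90.8, 99.1 and 124 scaled TPM in DDC biliary cells, 1.48 above untreated biliary cells (SE 0.32, adjusted p = 0.00499 by limma). Col4a2 was 44, 59.7 and 75.1, 1.5 above (SE 0.29, adjusted p = 0.00253 by limma). Reprogrammed cells lay between, at 86.7, 62 and 83.1 for Col4a1 and 38.3, 38.6 and 53 for Col4a2. Every library of reprogrammed and of DDC biliary cells was above every untreated biliary library for both genes. Against DDC hepatocytes, Col4a1 was higher by 2.27 in DDC biliary and 1.83 in reprogrammed cells, and Col4a2 by 2.53 and 2.09, all 4 called.

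In DDC hepatocytes the pair was called for Col4a1 but not for Col4a2. Col4a1 was 40.8, 14.6 and 14.8 scaled TPM, where the first library was far above the others, and the difference from untreated hepatocytes was 2.01 (SE 0.32, adjusted p = 0.000583) by limma. Col4a2 was 13, 10.03 and 6.03 and overlapped the untreated values (0.85, adjusted p = 0.0482 by limma). The ratio of Col4a1 to Col4a2 was 0.904, 0.833 and 1.09 in untreated hepatocytes and 3.13, 1.45 and 2.46 in DDC hepatocytes, where it varied most. In the 9 libraries of biliary and reprogrammed cells it ranged from 1.57 to 2.26.

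Col4a5 and Col4a6 differed from each other in biliary cells. Col4a5, the chain that joins either Col4a3 and Col4a4 or Col4a6 in specialised membranes, was 26.7, 30.7 and 30.9 scaled TPM in untreated and 31.4, 24.7 and 32.9 in DDC biliary cells, which overlapped (0.0, 95% interval -0.53 to 0.54). In hepatocytes Col4a5 rose from 0.38, 0.762 and 1.75 to 7.03, 5.04 and 5.2, a difference of 1.83 (SE 0.25, adjusted p = 0.000155) by limma. Col4a6 was 3.78, 4.54 and 3.54 in untreated and 10.6, 9.38 and 11.3 in DDC biliary cells, a difference of 1.21 (SE 0.16, adjusted p = 0.000133) by limma, and at most 0.0249 in hepatocytes of either treatment. The ratio of Col4a6 to Col4a5 was 0.141, 0.148 and 0.114 in untreated biliary libraries and 0.339, 0.380 and 0.343 in DDC biliary libraries. In reprogrammed cells, with Col4a5 at 28.3, 16.1 and 21.6 and Col4a6 at 7.69, 4.33 and 5.71, it was 0.272, 0.269 and 0.264, between the biliary groups in every library. Both chains were called higher than in DDC hepatocytes, Col4a5 by 2.18 in DDC biliary and 1.74 in reprogrammed cells and Col4a6 by 3.5 and 2.75.

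Col4a3 and Col4a4, chains of the kidney filter's basement membrane, were at their highest in untreated biliary cells. Col4a3 was 3.42, 2.77 and 3.74 scaled TPM in untreated, 1.2, 1.77 and 1.55 in DDC biliary cells and 0.791, 0.687 and 0.812 in reprogrammed cells. Col4a4 was 2.21, 2.15 and 2.74, 0.853, 1.25 and 0.788 and 0.415, 0.361 and 0.383 in the same groups. Both were at most 0.114 in hepatocytes. DDC biliary cells stood below untreated ones in every library, with differences of -0.78 and -0.78 (adjusted p = 0.000541 and 0.000409 by limma), which is short of the required size at these low levels. Of collagen IV mRNA, Col4a3 took 3.46% ± 0.553 in untreated and 0.735% ± 0.149 in DDC biliary libraries, and Col4a4 2.47% ± 0.235 and 0.479% ± 0.16. Against DDC hepatocytes Col4a3 was called in DDC biliary cells (1.23) but was under the required size with quantile normalization (0.69), and Col4a4 was not called (0.93).

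**Figure D3:**
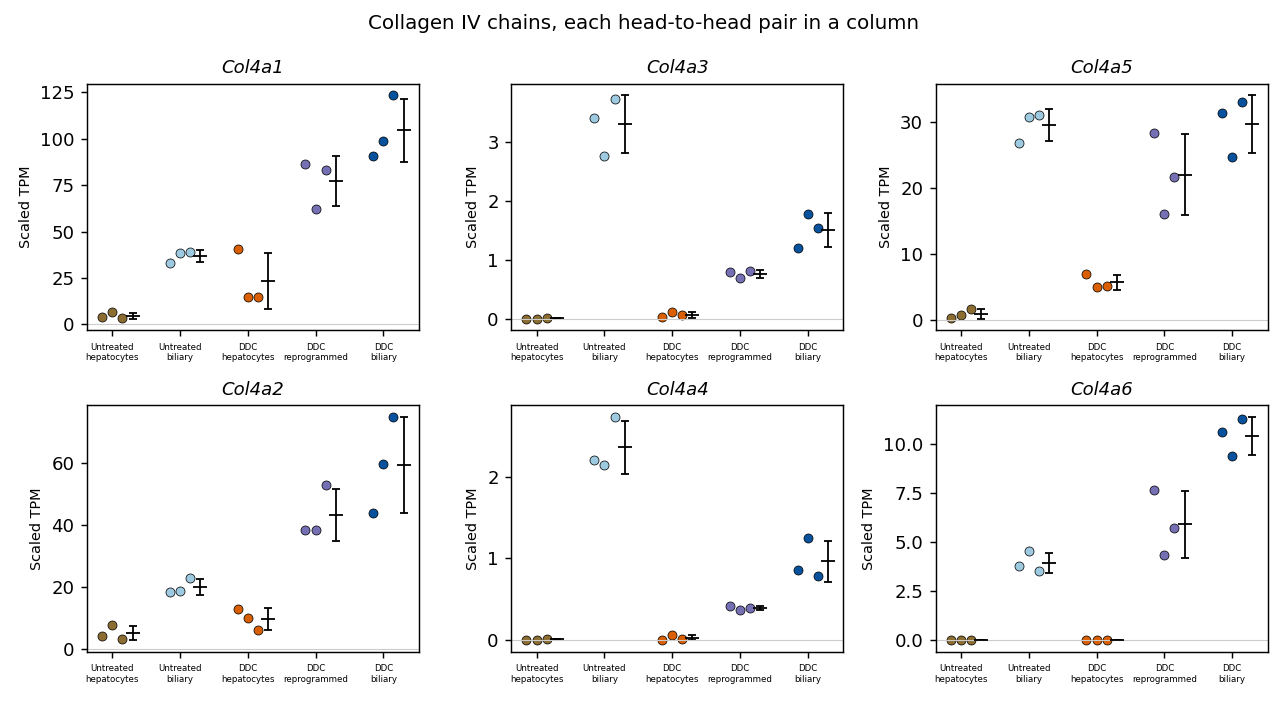
Each panel plots the scaled TPM of a collagen IV gene in the 15 libraries, with the mean and SD of each group beside its points; the panels in a column are head-to-head neighbours in the genome. Col4a1 and Col4a2 stand highest in DDC biliary cells, Col4a3 and Col4a4 in untreated biliary cells, and Col4a5 is level between the biliary groups while Col4a6 is not.

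The 6 collagen IV genes lie in 3 head-to-head pairs, each transcribed in opposite directions from neighbouring starts. In GENCODE M21 (GRCm38), Col4a1 and Col4a2 overlap by 22 bases on chromosome 8, with starts at 11312826 on the minus strand and 11312805 on the plus strand. Col4a4 and Col4a3 start 72 bases apart on chromosome 1, at 82586849 on the minus and 82586921 on the plus strand. Col4a6 and Col4a5 start 1309 bases apart on chromosome X, at 141474076 on the minus and 141475385 on the plus strand. The sequences before the starts of the latter pairs are shown because the ratio within the pair overlapped between untreated and DDC biliary libraries for Col4a3 and Col4a4 but not for Col4a6 and Col4a5. The first line is the whole stretch between the starts of Col4a4 and Col4a3 (chr1:82586850-82586920, minus strand), the second the 216 bases before Col4a5 (chrX:141475169-141475384, plus strand) and the last the 250 bases before Col4a6 (chrX:141474077-141474326, minus strand), all from RefSeq GRCm38.p6, with the same boxes in capitals.
Col4a4: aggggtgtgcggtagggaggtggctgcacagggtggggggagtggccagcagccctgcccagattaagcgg
Col4a5: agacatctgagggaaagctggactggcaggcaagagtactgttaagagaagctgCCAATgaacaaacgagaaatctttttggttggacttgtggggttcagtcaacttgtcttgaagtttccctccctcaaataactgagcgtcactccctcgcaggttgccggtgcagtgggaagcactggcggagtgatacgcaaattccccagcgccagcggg
Col4a6: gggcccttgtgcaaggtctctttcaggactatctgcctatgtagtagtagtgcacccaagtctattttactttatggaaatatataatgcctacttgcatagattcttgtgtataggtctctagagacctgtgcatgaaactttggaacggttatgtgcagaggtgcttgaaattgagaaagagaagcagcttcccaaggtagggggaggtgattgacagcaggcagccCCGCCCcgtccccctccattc
The stretch between Col4a4 and Col4a3 holds none of the 3 boxes, which 13.3% (CCAAT), 20.7% (GC) and 4.41% (TATA) of RefSeq start windows cut at the same positions hold. The one before Col4a5 holds a CCAAT box, as do 30.5% of windows so cut, and the one before Col4a6 a GC box, as do 32.7%. The ratio of Col4a3 to Col4a4 was 1.55, 1.29 and 1.36 in untreated biliary libraries and 1.40, 1.42 and 1.96 in DDC biliary libraries, which overlap, and 1.91, 1.90 and 2.12 in reprogrammed libraries, above every untreated one.

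Col18a1 was by far the most abundant chain in hepatocytes. It encodes a collagen of vascular and epithelial basement membranes whose C-terminal fragment is endostatin, and hepatocytes are its known main source in liver. It was 470.2, 449 and 481 scaled TPM in untreated and 411, 515 and 399.9 in DDC hepatocytes, which overlapped (-0.09, 95% interval -0.52 to 0.35). It was 153, 112 and 154 in untreated and 117, 172 and 126 in DDC biliary cells, which overlapped too (-0.02, 95% interval -0.46 to 0.41). Reprogrammed cells lay between, at 182, 304 and 242, with the first library lowest and the second highest. With deposited TPM, DDC hepatocytes (317, 356.3 and 257.8) and reprogrammed cells (252.7, 322 and 299.3) overlapped.

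Col18a1 was called lower in biliary cells than in hepatocytes, at -1.75 in untreated and -1.68 in DDC mice (adjusted p = 6.21e-06 and 9.92e-06 by limma). With deposited TPM these differences were -0.48 and -0.57, and with quantile normalization -0.57 and -0.70, all in the same direction and under the required size. Biliary cells held 30% and 31.2% of the hepatocyte level and reprogrammed cells 54.9%, above the 14.5% to 23.6% and 35.3% to 48.9% of the hepatocyte markers; the part of hepatocyte RNA in these levels was not tested.

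Col15a1, the closest relative of Col18a1, fell with DDC in hepatocytes. It was 5.21, 6.53 and 7.82 scaled TPM in untreated and 2.05, 1.23 and 1.3 in DDC hepatocytes, a difference of -1.57 (SE 0.28, adjusted p = 0.00117) by limma. In the other groups it was low, at 1.02, 0.981 and 1.48 in untreated biliary cells, 1.87, 0.594 and 1.89 in reprogrammed cells and 2.25, 0.762 and 2.19 in DDC biliary cells. It was called lower in untreated biliary cells than in untreated hepatocytes (-1.79, and -0.86 with deposited TPM), and the 3 DDC groups overlapped.

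The fibrillar collagens of scar tissue were low in every group and were highest in single libraries of DDC mice. Col1a1, a chain of type I collagen, was at most 0.344 scaled TPM in untreated libraries, 0.749, 0.848 and 0.906 in DDC hepatocytes, 2.92, 0.985 and 4.48 in reprogrammed cells and 2.46, 1.54 and 7.28 in DDC biliary cells. Col1a2, its partner chain, was at most 0.757 in untreated libraries and 1.26, 0.709 and 0.982, 1.76, 1.69 and 5.64 and 2.29, 2.1 and 8.17 in the same DDC groups. Col3a1, the chain of type III collagen, was at most 0.27 in untreated hepatocytes, 1.35, 1.84 and 1.8 in untreated biliary cells and 1.6, 1.91 and 1.9, 4.7, 3.15 and 12.8 and 3.39, 4.01 and 16.4 in the DDC groups. In all 3 genes the third library was the highest of the reprogrammed cells and of the DDC biliary cells.

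Col1a1, Col1a2 and Col3a1 were called higher in DDC than in untreated biliary cells, at 1.67, 1.61 and 1.45 (adjusted p = 0.00704, 0.00988 and 0.0401 by limma). They were also called higher in DDC biliary cells than in DDC hepatocytes, at 1.19, 1.20 and 1.37 (adjusted p = 0.0164, 0.0175 and 0.022 by limma). Without the third DDC biliary library the latter differences were 0.70, 0.70 and 0.74, with no call, and with quantile normalization they were 0.22, 0.25 and 0.52. The call of Col3a1 against untreated biliary cells was lost without the third DDC biliary library (0.82, adjusted p = 0.157 by limma) or without any 1 untreated biliary library (adjusted p from 0.0818 to 0.114). Against DDC hepatocytes, Col3a1 was called higher in the reprogrammed libraries (1.30, adjusted p = 0.039 by limma) and was 0.80 (adjusted p = 0.179) without the third reprogrammed library; this call was also lost without the first reprogrammed or any 1 DDC hepatocyte library (adjusted p from 0.0566 to 0.0807). In untreated mice Col3a1 passed by a narrow margin (1.22, adjusted p = 0.037 by limma), and the call was lost without any 1 of the 6 libraries compared.

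In the reprogrammed and the DDC biliary cells, the third library was also the highest in most of the 14 listed markers of stellate cells and fibroblasts. The first library was instead highest for Rgs5, Reln and Thy1 in reprogrammed cells and for Thy1 and Mfap4 in DDC biliary cells. Dcn, the fibroblast proteoglycan decorin, was 3.85, 12.1 and 32.4 scaled TPM in the reprogrammed libraries and 3.32, 12.4 and 43.2 in the DDC biliary ones, and Lum, lumican, was 0.983, 1.39 and 4.6 and 1.42, 1.43 and 6.24. The 14 markers of this list summed to 2.49 to 6.05 scaled TPM in untreated hepatocytes, 131 to 141 in untreated biliary cells, 14.1 to 22.5 in DDC hepatocytes, 277 to 430.4 in reprogrammed cells and 392 to 619.9 in DDC biliary cells. Most of these sums was Rgs5, a pericyte gene, at 104 to 108 in untreated biliary cells, 258 to 389.5 in reprogrammed cells and 379.6 to 553 in DDC biliary cells.

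Dcn alone was 32.4 scaled TPM in the third reprogrammed and 43.2 in the third DDC biliary library. Without Rgs5 the other 13 markers, Dcn among them, summed to 14.2, 19.9 and 52.5 in the reprogrammed libraries and to 12.1, 22.4 and 66.5 in the DDC biliary libraries. They summed to 29.1, 32.3 and 27.7 in untreated biliary cells, 11.7, 11.7 and 12.5 in DDC hepatocytes and 2.41, 5.72 and 2.95 in untreated hepatocytes. The 4 defining stellate markers Lrat, Reln, Hand2 and Pdgfrb summed to 11.2 to 18.8 in untreated biliary cells. Every library of DDC biliary cells (2.47 to 7.02) and of reprogrammed cells (2.67 to 6.71) lay below, with no marker at 0 throughout any of these groups. Most of the untreated biliary sum was Reln, at 12.3, 17.4 and 10.6, against 2.29, 1.14 and 3.02 in DDC biliary cells. Pdgfrb went the other way, at 0.189, 0.308 and 0.203 in untreated and 0.703, 0.515 and 2.06 in DDC biliary cells. The means of untreated and DDC biliary cells were 0.581 and 0.605 for Lrat and 0.473 and 0.361 for Hand2. Hand2 and Lum were at 0 in all untreated hepatocyte libraries. The third DDC biliary library was also the highest of all 15 in the sums of the endothelial (17.1) and of the macrophage and leukocyte markers (130.4). The part of such cells in the collagen values was not tested.

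**Figure D4:**
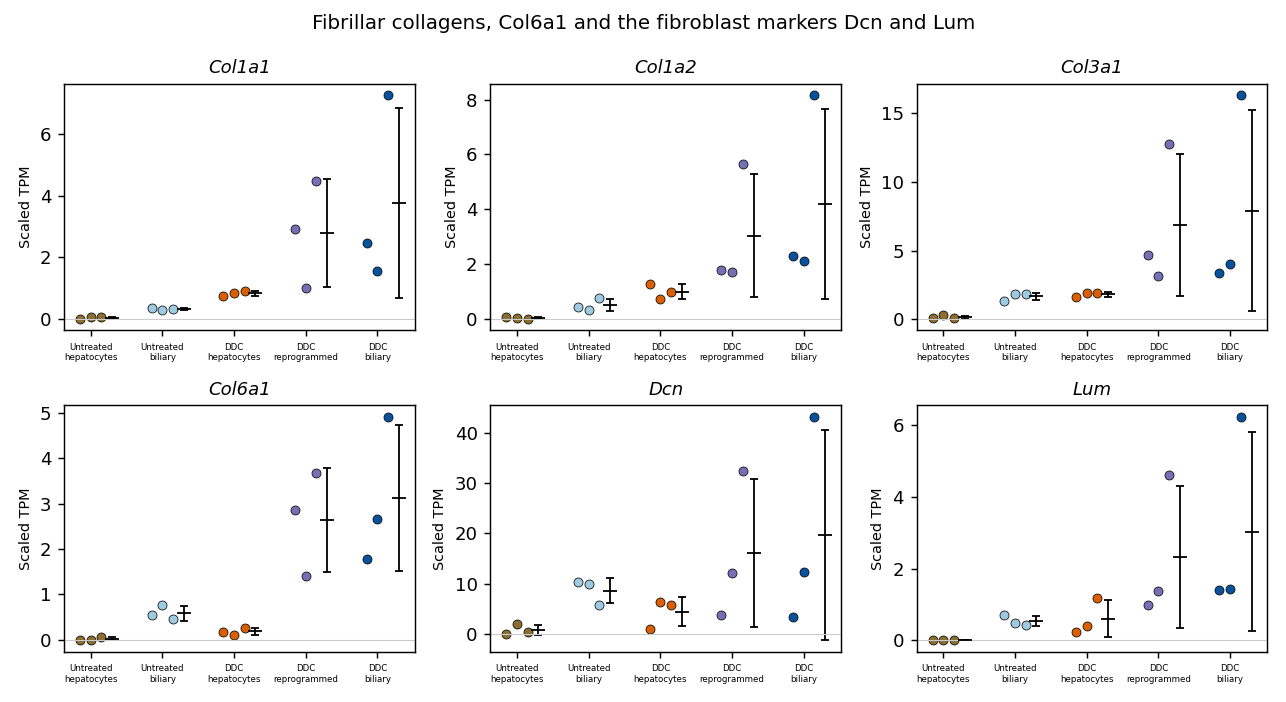
Scaled TPM of Col1a1, Col1a2, Col3a1 and Col6a1 and of the fibroblast markers Dcn and Lum in the 15 libraries, with the mean and SD of each group beside its points. In each panel the third library is the highest point of the reprogrammed cells and of the DDC biliary cells.

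Collagen VI forms beaded microfibrils around many cell types. Col6a1 was at most 0.0647 scaled TPM in untreated hepatocytes, 0.546, 0.766 and 0.449 in untreated biliary cells, 0.174, 0.109 and 0.266 in DDC hepatocytes, 2.85, 1.4 and 3.68 in reprogrammed cells and 1.79, 2.67 and 4.92 in DDC biliary cells. It was higher in DDC biliary cells than in untreated biliary cells by 1.31 and than in DDC hepatocytes by 1.73, and in reprogrammed cells it exceeded DDC hepatocytes by 1.57 (adjusted p = 0.00297, 8.3e-05 and 0.000429 by limma). With quantile normalization these differences were 0.98, 0.99 and 0.98, just under the required size. Its partner Col6a2 was at most 1.63 scaled TPM in any library and was called in no comparison, and Col6a3 did not reach 1 TPM in 3 libraries.

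Among the remaining fibrillar collagens, Col5a3 and Col27a1 were the most abundant. Col5a3, a chain of type V collagen, was 2.71, 11.9 and 18.6 scaled TPM in untreated hepatocytes, where it varied widely, and 0.387, 1.99 and 2.83 in untreated biliary cells. It was 7.84, 9.35 and 8.58 in DDC hepatocytes, 3.33, 4.56 and 5.98 in reprogrammed cells and 1.1, 2.18 and 1.92 in DDC biliary cells, so the DDC groups stood in that order with no overlap. With deposited TPM, DDC hepatocytes (6.05, 6.47 and 5.53) and reprogrammed cells (4.61, 4.83 and 7.41) overlapped. Biliary cells were called lower than hepatocytes in untreated (-1.96, adjusted p = 0.00417 by limma, with overlap) and DDC mice (-1.83, adjusted p = 0.00673). With deposited TPM these were -1.01 and -0.97 (adjusted p = 0.0873 and 0.0965). The difference between reprogrammed and DDC biliary cells was 1.03 (adjusted p = 0.189 by limma) and became a call with the replicate number as a block (adjusted p = 0.00786). Biliary cells held 15.7% and 20.2% of the hepatocyte level, against 14.5% to 23.6% for the hepatocyte markers.

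Col27a1, a fibrillar collagen known from cartilage, fell with DDC in hepatocytes. It was 13.1, 9.53 and 7.68 scaled TPM in untreated and 2.16, 1.16 and 0.875 in DDC hepatocytes, a difference of -2.22 (SE 0.32, adjusted p = 0.00025) by limma. It was 25, 25.5 and 25.1 in untreated biliary cells, 10.6, 5.48 and 13 in reprogrammed cells and 13.2, 8.6 and 19.1 in DDC biliary cells. Biliary cells were higher than hepatocytes in both treatments, by 1.27 and 2.58, and reprogrammed cells were higher than DDC hepatocytes by 2.12. DDC biliary cells stood below every untreated biliary library, but the difference passed no threshold (-0.91, adjusted p = 0.0524 by limma). Col5a1, at most 1.24 scaled TPM, was called in no comparison.

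Of the 7 tested collagens of the fibril-associated and transmembrane kinds, 4 were higher in untreated and 3 in DDC biliary cells than in hepatocytes (21.6% and 20.1% of all genes). Col16a1, a fibril-associated collagen, was at most 0.0607 scaled TPM in untreated hepatocytes, 8.76, 9.2 and 14 in untreated biliary cells, 1.17, 0.575 and 0.985 in DDC hepatocytes, 31.2, 10.1 and 18.3 in reprogrammed cells and 36.3, 16.4 and 23.9 in DDC biliary cells. The first library was the highest of the reprogrammed cells and of the DDC biliary cells. Biliary cells were higher than hepatocytes by 3.46 in untreated and 3.74 in DDC mice, and reprogrammed cells were higher than DDC hepatocytes by 3.33. The rise with DDC in biliary cells (1.14, adjusted p = 0.0283 by limma) was lost without the first or the third DDC biliary library (0.86 and 1.15, adjusted p = 0.0968 and 0.0733) and without the first or second untreated biliary library (adjusted p = 0.0997 and 0.0884).

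Col9a3, a chain of cartilage type IX collagen, was 6.75, 7.61 and 6.73 scaled TPM in untreated biliary cells, 6.29, 2.59 and 2.99 in DDC biliary cells, 2.96, 1.07 and 1.78 in reprogrammed cells and at most 0.123 in hepatocytes of either treatment. It was called higher in biliary cells in both treatments (2.91 and 2.24) and in reprogrammed cells (1.5). Col14a1, a fibril-associated collagen, was 1.89, 1.47 and 1.03 in untreated biliary cells, 3.75, 1.9 and 4.54 in DDC biliary cells, 1.9, 1.08 and 2.65 in reprogrammed cells and at most 0.438 in hepatocytes. It was called higher against hepatocytes in the same 3 comparisons (1.16, 1.75 and 1.15), and with quantile normalization it was 0.56, 0.92 and 0.51 with no call. The last call was also lost without the first DDC hepatocyte (0.99) or the third reprogrammed library (0.96). Col23a1, a transmembrane collagen, was 1.1, 0.986 and 1.18 in untreated biliary cells and at most 0.357 elsewhere, and was called in untreated mice (1.04, adjusted p = 1.76e-06 by limma; 0.75 with quantile normalization).

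Col12a1, a fibril-associated collagen, was the only collagen called between reprogrammed and DDC biliary cells. It was 3.24, 2.12 and 4.83 scaled TPM in reprogrammed cells, 0.707, 1.15 and 1.53 in biliary cells of DDC mice and 1.21, 1.17 and 1 in DDC hepatocytes, and at most 1.19 in untreated libraries. Reprogrammed cells were above both other DDC groups in every library, by 1.02 and 1.0 (adjusted p = 0.0158 and 0.00371 by limma). Without the third reprogrammed library, the highest, the differences were 0.79 and 0.78, and with quantile normalization the latter was 0.17. Col20a1 lay between 0.255 and 2.05 scaled TPM in all libraries and Col9a2 between 0 and 1.07, and neither was called in any comparison.

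Compared with DDC biliary cells directly, reprogrammed cells differed in few of these genes. Of the 34, 5 were called, against 3.63% of all genes tested: Nid1 and Col12a1 were higher (2.91% of all genes) and Lama3, Lamb1 and Lamb3 lower (0.726%). The median difference was -0.41 for the 34 genes and -0.05 for all genes. Lama3, Lamb1 and Lamb3 differed by -1.04, -1.02 and -1.0 (adjusted p = 0.00784, 0.00639 and 0.0287 by limma) and Nid1 differed by 1.0 (adjusted p = 0.0177). For each of the 5 genes the libraries of the groups did not overlap. All 5 lie at the required size of 1, and the count was 0 when the fit held just these 6 libraries, when the pseudocount was 5 and when the third library of both groups was left out. Leaving out any 1 library left 1 to 4 calls. With deposited TPM 0 were higher and 8 lower, and with quantile normalization 1 was higher and 5 lower.

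Reprogrammed cells had a mean between DDC hepatocytes and DDC biliary cells for 29 of the 34 genes. They were above both for Col12a1, Col23a1, Col5a1 and Col9a2 and below both for Col15a1. This order is a description and was not tested, and with deposited TPM Nid1 and Nid2 also had their highest DDC mean in reprogrammed cells. Of the intermediate genes, Col18a1, Col5a3, Nid1 and Nid2 were highest in DDC hepatocytes and the others in DDC biliary cells. The hepatocyte markers had the former order. They summed to 71360 to 145700 scaled TPM in DDC hepatocytes, 22110 to 72560 in reprogrammed cells and 12490 to 28650 in DDC biliary cells. These sums, which were mostly Alb, overlapped between neighbours. Taken singly, Alb and Cps1 overlapped between neighbours, whereas Ttr, Apoa1, Hnf4a and Cyp2e1 did not. The biliary markers had the latter order, at 262 to 582, 4303 to 10430 and 7589 to 12520, where reprogrammed and DDC biliary cells overlapped. Most of this sum was Spp1. Taken singly, Spp1, Krt7 and Cftr overlapped between reprogrammed and DDC biliary cells. Krt19, Epcam and Sox9 were lower in every reprogrammed than in every DDC biliary library. The part of either signal in these levels was not tested.

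The response to DDC differed between hepatocytes and biliary cells for a part of these genes. In hepatocytes 10 of the 34 were called, against 11% of all genes: 7 rose (6.62%) and 3 fell (4.39%), with a median of 0.17 against 0.02. In biliary cells 15 were called, against 10.4% of all genes: 13 rose (5.63%) and 2 fell (4.78%), with a median of 0.48 against -0.03. The difference between these responses, tested as an interaction, was called for 10 genes, against 8.42% of all genes, with 5 higher in biliary cells (3.39%) and 5 lower (5.03%).

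Lama3 and Lamb3 stood out among the genes whose response was higher in biliary cells. Lama3 fell in hepatocytes and rose in biliary cells, a difference of 3.44 (SE 0.27, adjusted p = 7.36e-06) by limma, and Lamb3 rose in biliary cells with -0.12 in hepatocytes, a difference of 3.25 (SE 0.38, adjusted p = 0.000138). Lamb1 (1.39), Col4a6 (1.21) and Col15a1 (1.86) were the others. The response was lower in biliary cells for Lamc3 (-4.21), Lamb2 (-3.30), Nid1 (-1.96), Col4a5 (-1.83) and Lamc1 (-1.53). Lamb2 rose in hepatocytes and fell in biliary cells, while Nid1 rose in both. Lamc3 and Col4a6 were at most 0.0416 and 0.0249 scaled TPM in hepatocytes of either treatment. Their differences are thus nearly the changes of biliary cells alone. Lamb1 was near 0 in hepatocytes, where the pseudocount sets much of the log2 difference, and with a pseudocount of 0.1 its difference was 0.39 (adjusted p = 0.647 by limma).

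**Figure D5:**
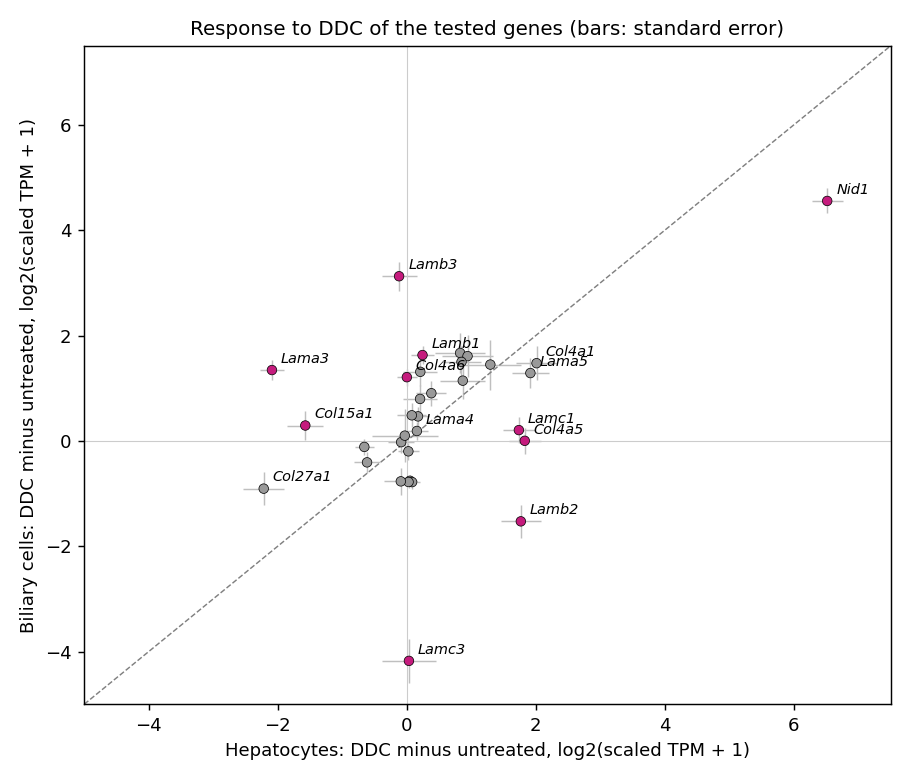
Each point is a tested gene, with the difference between DDC and untreated hepatocytes in log2(scaled TPM + 1) on the x axis, the same for biliary cells on the y axis, and bars of 1 standard error; the dashed line marks equal responses and pink points are the 10 genes called for unequal ones. Nid1 lies far to the upper right, Lama3 and Lamb3 above the line, and Lamb2 and Lamc3 below it.

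Enzymes and chaperones that process collagen were called mostly between cell types. Of 26 tested genes of collagen processing and crosslinking, 11 were higher and 4 lower in untreated biliary cells than in hepatocytes (21.6% and 15.6% of all genes), 11 and 3 in DDC mice (20.1% and 14.6%), and 9 and 1 in reprogrammed cells against DDC hepatocytes (13.7% and 5.8%). Serpinh1, the collagen chaperone, was 90.5, 114 and 85.4 scaled TPM in untreated biliary cells, 48.3, 23.9 and 41.4 in reprogrammed cells, 80.5, 51.7 and 82.5 in biliary cells of DDC mice and at most 0.533 in hepatocytes. Plod2, a lysyl hydroxylase, differed by 3.36, 4.02 and 3.12 in these comparisons, and P3h4, part of a collagen hydroxylase complex of the endoplasmic reticulum, by 3.84, 3.11 and 2.86. P4ha3, a prolyl hydroxylase subunit, was also among the 4 largest differences in untreated mice (3.06).

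With DDC, 2 genes of this list rose and 2 fell in hepatocytes (6.62% and 4.39% of all genes), a count near the background, and 6 rose and 2 fell in biliary cells (5.63% and 4.78%). Loxl2, a lysyl oxidase that crosslinks collagen IV, rose by 2.62 in hepatocytes and 2.62 in biliary cells, and P4ha1, a prolyl hydroxylase subunit, fell by 1.63 and 1.73 on the log2 scale (adjusted p = 8.96e-05 and 9.19e-05 for Loxl2 and 0.000176 and 0.000116 for P4ha1 by limma). Pxdn, the peroxidase that makes the sulfilimine crosslink of collagen IV, was 8.15, 6.25 and 8.26 scaled TPM in untreated and 22.5, 27.7 and 41.4 in DDC biliary cells, a difference of 1.85 (SE 0.22, adjusted p = 5.47e-05) by limma, and at most 0.279 in hepatocytes. It was 24.1, 15.3 and 25 in reprogrammed cells, above all untreated biliary libraries. Crtap, a subunit of the prolyl 3-hydroxylation complex, and Loxl4, a lysyl oxidase, differed between DDC and untreated hepatocytes by 1.63 and -1.53, and P3h2, a prolyl hydroxylase, between DDC and untreated biliary cells by -1.71. The difference between the DDC responses was called for Pxdn (1.62) and P3h2 (-1.54).

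Other basement membrane proteins were also mostly higher in biliary and reprogrammed cells. Of 15 tested, 11 were higher and 0 lower in untreated biliary cells than in hepatocytes (21.6% and 15.6% of all genes), 9 and 2 in DDC mice (20.1% and 14.6%), and 8 and 1 in reprogrammed cells against DDC hepatocytes (13.7% and 5.8%). Sparc, a collagen-binding glycoprotein, was 122, 145 and 147 scaled TPM in untreated biliary cells, 200.1, 116 and 172 in reprogrammed cells and 199, 187 and 257 in DDC biliary cells. In hepatocytes it went from at most 0.634 to 5.96, 2.87 and 4.22 with DDC, a difference of 1.81 (SE 0.22, adjusted p = 8.41e-05) by limma. Hspg2, perlecan, was 38, 41.8 and 56.5 in untreated biliary cells, 23.2, 23.1 and 33.1 in reprogrammed cells, 32.9, 61.1 and 71.9 in biliary cells of DDC mice and at most 0.847 in hepatocytes, and its biliary groups overlapped. Tinagl1, a matricellular glycoprotein, was 98.7, 96.8 and 118, 196, 38.3 and 107 and 214, 65.8 and 137 in these groups, with the first library highest in both DDC groups. Ntn4, a laminin-related netrin, was 16.6, 15 and 13.8, 16, 7.46 and 13.5 and 15.3, 10.2 and 14.8, and at most 1.29 in hepatocytes.

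DDC moved a few of these partners strongly. Smoc2, a SPARC-related protein, was 0.7, 0.618 and 3.42 scaled TPM in untreated and 28.7, 29.6 and 32.1 in DDC hepatocytes, a difference of 3.76 (SE 0.38, adjusted p = 1.86e-05) by limma, and it rose in biliary cells by 2.09 to 6.85, 7.06 and 2.91. It was highest in DDC hepatocytes and intermediate in reprogrammed cells, at 9.81, 17.2 and 9.1. Tinag, a basement membrane antigen of kidney tubules, rose in hepatocytes by 3.16 to 12.2, 5.81 and 11.8. Fras1, a protein of epithelial basement membranes, fell in biliary cells from 8.41, 9.84 and 9.34 to 0.0712, 0.413 and 0.185, a difference of -3.07 (SE 0.14, adjusted p = 2.74e-08) by limma, while Fbln2, fibulin-2, rose there from 11.1, 8.87 and 21.3 to 52.7, 43 and 60.7, a difference of 1.93 (SE 0.26, adjusted p = 0.000168). Npnt, an integrin ligand, rose by 1.74 in biliary cells. In all, 3 rose and 0 fell in hepatocytes (6.62% and 4.39% of all genes), and 5 rose and 2 fell in biliary cells (5.63% and 4.78%). The responses differed for 7 of the 15 genes, 3 higher and 4 lower in biliary cells (3.39% and 5.03% of all genes), with Fras1 (-2.43), Tinag (-2.06), Fbln2 (1.72) and Npnt (1.5) furthest apart among the called genes.

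Agrin was the most abundant of the other called partners. Agrn, which encodes this proteoglycan, was 146, 163 and 202 scaled TPM in untreated biliary cells, 195, 118 and 208 in reprogrammed cells, 208, 223 and 284 in biliary cells of DDC mice and at most 23.8 in hepatocytes. Frem2, which acts with Fras1, was 3.43, 3.45 and 3.49, 1.33, 0.668 and 0.906 and 2.31, 1.72 and 2.26 in these groups and at most 0.00664 in hepatocytes. Npnt was 1.29, 1.13 and 1.94, 3.63, 3.75 and 3.53 and 5.77, 6.89 and 8.97, and at most 1.14 in hepatocytes. Agrn and Npnt stood higher in every DDC biliary than in every untreated biliary library, with a call for Npnt and not for Agrn (0.48).

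Ntn1, the laminin-related guidance protein netrin-1, rose in biliary cells from 0.57, 0.512 and 1.07 to 2.77, 3.19 and 3.82 scaled TPM (1.32). Egfl6, an integrin-binding matrix protein, fell there from 2.95, 2.36 and 1.38 to 0.786, 0.133 and 0.176 (-1.24), and Tinag rose there from 1.64, 1.37 and 3.12 to 7.08, 3.42 and 6 (1.09). Spock2, a testican proteoglycan, passed the test in the untreated comparison alone, at 0.994, 1.18 and 3.77 in biliary cells and at most 0.109 in hepatocytes (1.36). Smoc1, a relative of Smoc2, was called lower in DDC biliary cells, at 44.5, 43 and 36.6, than in DDC hepatocytes, at 91.7, 102 and 94.2 (-1.20). This call depends on the scaling: with deposited TPM the groups overlapped and the difference was under the required size.

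Receptors for laminin and collagen were the last list, with 11 genes tested. In biliary cells 6 were higher and 0 lower than in hepatocytes of untreated mice (21.6% and 15.6% of all genes), 6 and 1 in DDC mice (20.1% and 14.6%), and 6 and 0 in reprogrammed cells against DDC hepatocytes (13.7% and 5.8%). Itgb4, the integrin chain of hemidesmosomes, was 23.5, 26.1 and 29.2 scaled TPM in untreated biliary cells, 20.9, 19.6 and 27.3 in reprogrammed cells, 33.1, 42.2 and 48.4 in biliary cells of DDC mice and at most 0.206 in hepatocytes. Bcam, a receptor of the Lama5 chain, differed by 6.83, 4.82 and 4.37, and Itga3, a laminin-binding integrin chain, by 3.88, 3.66 and 3.17.

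The collagen receptors Itga2 and Ddr1 responded to DDC in different cells. Itga2 was 1.63, 1.45 and 1.58 scaled TPM in untreated and 24.2, 34.9 and 42 in DDC biliary cells, a difference of 3.73 (SE 0.22, adjusted p = 1.49e-07) by limma, 22.6, 16 and 21.2 in reprogrammed cells and at most 0.968 in hepatocytes. Ddr1 was at most 0.299 in untreated and 24.6, 18.3 and 22.1 in DDC hepatocytes, a difference of 4.23 (SE 0.25, adjusted p = 1.93e-07) by limma, and 67.7, 65.5 and 103 and 142, 93 and 128 in the biliary groups. The difference between the DDC responses was 3.23 for Itga2 and -3.61 for Ddr1 (adjusted p = 2.53e-05 and 3.5e-05 by limma). Bcam and Itga6, a laminin-binding integrin chain, also rose in DDC hepatocytes (1.74 and 1.62), with called differences between the responses of -2.01 and -1.56.

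The other members did not pass the filter on low values. Col13a1, Col5a2 and Col6a3 reached 1 TPM in at least 1 library but in too few to be tested, with highest deposited values of 1.47, 2.15 and 2.96 TPM. A further 20 were under 1 TPM in every library and were not tested: Col10a1, Col11a1, Col11a2, Col17a1, Col19a1, Col22a1, Col24a1, Col25a1, Col26a1, Col28a1, Col2a1, Col6a4, Col6a5, Col6a6, Col7a1, Col8a1, Col8a2, Col9a1, Lama1 and Lama2. The highest deposited value among them was 0.723 TPM, for Col11a2, and Col10a1 was listed at 0 in all 15 libraries. Lama1 and Lama2, alpha chains known from embryonic and muscle basement membranes, were thus not expressed above 1 TPM in any of the 5 groups.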

How the data were processed

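RNA was prepared with the RNeasy micro kit from sorted mouse liver cells, per the labels. Per the submitters' processing notes, the authors deposited gene-level TPM made with Salmon for the mouse build mm10; the Salmon version was not stated in those notes. All 15 value columns were matched to samples by title. Each library was divided by its median ratio to the geometric mean over 12427 genes above 0 in all libraries, and log2(scaled TPM + 1) of 13905 genes with at least 1 TPM in at least 3 libraries was fitted in limma 3.58.1 (R 4.3.3), with all 5 groups and limma's trend option, which left 10 residual degrees of freedom. The p-values were Benjamini-Hochberg adjusted over all 13905 genes. TPM are not counts, so no count test was used. The fit was tested on simulated data, and plots came from matplotlib 3.10.9 (Python 3.11.15).

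The members, gene lists and markers were chosen with earlier results of these data known. Named by library were members with a mean of at least 5 scaled TPM in a group or a call in a comparison, and of each list up to 4 called genes per comparison; Dcn, Lum and Rgs5, and some values of named genes in other comparisons, were added after the values were seen. All 57 members had a GENCODE M21 position, and 41 matched a RefSeq start window; the windows were cut to bases outside annotated transcripts. A tested member enters the counts but is not reported here. Chain shares are percentages of the summed TPM of a chain class within a library.

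Library numbers in the titles were checked for pairing by correlating deviations from group means across genes. Same-numbered libraries correlated at 0.151 to 0.237 between the untreated groups, 0.136 to 0.449 between reprogrammed cells and DDC hepatocytes and 0.208 to 0.456 between reprogrammed and DDC biliary cells, so these were taken as paired. The main fit did not use this pairing, so the p-values given are unpaired unless the replicate block is named. Alternatives were 2 other scalings, a pseudocount of 0.1 or of 5, other filters on low values, fits of just the groups compared, limma without its trend option, the replicate number as a block and leaving out each library; leaving out the third library of the reprogrammed and of the DDC biliary cells together was added after seeing the data.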

Additional observations from a re-analysis of the deposited data

Results flagged for a closer look

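The interaction test called a different response to DDC in biliary cells and hepatocytes for 10 of the 34 tested genes (limma, in log2(scaled TPM + 1), biliary response minus hepatocyte response). Among the laminin beta and gamma chains, Lamc3 differed by -4.21 (adjusted p = 0.00047), Lamb2 by -3.3 (adjusted p = 0.000355) and Lamb3 by 3.25 (adjusted p = 0.000138), with Lamb1 at 1.39 (adjusted p = 0.0024) and Lamc1 at -1.53 (adjusted p = 0.0104). The alpha chain Lama3 differed by 3.44 (adjusted p = 7.36e-06), with a fall in all 3 DDC hepatocyte libraries and a rise in all 3 DDC biliary libraries. Nid1 differed by -1.96 (adjusted p = 0.00195), since it rose in both cell types and further in hepatocytes. Among collagens, Col4a5 differed by -1.83 (adjusted p = 0.00369), Col4a6, its head-to-head neighbour, by 1.21 (adjusted p = 0.00328) and Col15a1 by 1.86 (adjusted p = 0.00716). Lamc3 and Col4a6 were near 0 in hepatocytes of either treatment (at most 0.0416 and 0.0249 scaled TPM), so their values are nearly the changes of biliary cells alone. The calls of Nid1 and Lamc1 were lost with quantile normalization (-0.74 and -1.0, adjusted p = 0.226 and 0.0537). That of Col15a1 was lost with deposited TPM (1.62, adjusted p = 0.0504) and that of Lamb1 with a pseudocount of 0.1. With a pseudocount of 5, Col4a5 (-0.85), Col4a6 (0.79), Col15a1 (0.94) and Lamc1 (-0.99) were under the required size.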

How the results depend on the processing

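Of 1749 values of called members under the alternatives, 1592 kept direction and call, 157 kept direction and lost the call, and 0 reversed. The counts of called members, in the order in which the report gives the comparisons, are as follows, with the main count first. With a pseudocount of 5, untreated biliary cells against hepatocytes went from 24 to 15, DDC biliary cells against hepatocytes from 26 to 17, reprogrammed cells against DDC hepatocytes from 19 to 12, reprogrammed against DDC biliary cells from 5 to 0, DDC against untreated hepatocytes from 10 to 4, DDC against untreated biliary cells from 15 to 8 and the difference between responses from 10 to 6; a larger pseudocount shrinks log2 differences of low genes. With a pseudocount of 0.1, reprogrammed against DDC biliary cells had 3 and DDC against untreated hepatocytes 16. For reprogrammed against DDC biliary cells the count was 8 with deposited TPM and 0 with either just the 6 libraries in the fit or the third libraries of both groups left out; the cause was not tested. Leaving out 1 library at a time gave 23 to 23, 23 to 26, 16 to 22, 1 to 4, 9 to 11, 13 to 16 and 10 to 11 in that order of comparisons.

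With the replicate block the counts were 24, 26, 19, 6, 11, 15 and 12 in that order, and 0 calls were lost. The gained call in a paired comparison was Col5a3, given in the report. Same-numbered libraries did not meet the bound of 0.1 between DDC biliary cells and DDC hepatocytes (0.043 to 0.319) or between DDC and untreated cells (-0.118 to 0.0896). TPM holds no depth, so counting error of genes near 0 is unknown, and 3 libraries per group limit the precision of every value.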
